A study of Mus musculus with 2 samples.

Results

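The genes that write, read and erase DNA methylation were followed in mouse cells labelled as lymphoma. They were chosen by symbol: every probe set that the array's platform annotation ties to exactly 1 of Dnmt1, Dnmt3a, Dnmt3b, Dnmt3l, Tet1, Tet2, Tet3, Uhrf1 and Mbd2 was taken, which gave 22 of the 45101 probe sets and all 9 genes of the 18194 genes with a probe set. Total RNA was hybridised to 2 arrays of 1 colour, with 1 array per condition. The first condition was lymphoma cells grown in serum-containing medium, called serum culture here, and the second was lymphoma cells grown together with endothelial cells, the lining cells of blood vessels, called co-culture. The labels give no name for the lymphoma line, no species or source for the endothelial cells, no culture time, no medium for the co-culture and no step that parted the cell types. The question that the study's design text poses is how lymphoma cells differ in gene expression after contact with endothelial cells.

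In mammals a methyl group is placed on the cytosine of CpG dinucleotides. Dnmt3a and Dnmt3b place it on DNA that carried none (de novo methylation), Dnmt3l is a relative without catalytic activity that assists them, and Dnmt1 copies existing marks onto the new strand after replication. Uhrf1 recognises the half-methylated DNA behind the replication fork and brings Dnmt1 to it. The Tet enzymes oxidise methylcytosine, a step towards its removal, and Mbd2 binds methylated CpG and recruits the NuRD repressor complex. In blood cells and their cancers Dnmt3a and Tet2 are known as genes that are often mutated.

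The deposited values are linear intensities, and low ones were raised to a floor of 44.3, the median of all values of both arrays, before log2 was taken. A difference is the log2 value in co-culture minus that in serum culture, a probe set is called measured when either array put it above that level, and 2-fold (a log2 difference of 1 in size) is the limit for calling it higher or lower. Without replicates there is no test and no p-value, and the number of arrays limits the precision. The only error at hand is the disagreement between measured probe sets of the same gene, whose pooled SD was 0.60 (log2, 5480 genes), which holds no spread between cultures. Control genes differed in their 3′ to 5′ intensity ratio, a sign of RNA length. It was 3.56 for Actb, 2.54 for Gapdh and 13.2 for Tfrc in serum culture, against 2.05, 1.88 and 5.03 in co-culture. The part of this gap in any difference below was not tested. The sample labels call the cells lymphoma and name no lineage. Genes that define B cells were mostly near background, with 2 of 11 measured and 0 of 11 at an intensity of 200 or more. Pan-leukocyte genes were mostly so too, with 4 of 12 measured and 0 of 12 at that intensity. Each sample is called by its label for this reason.

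Of the 22 probe sets 21 were measured, and the exception was that of Dnmt3l. Among the 21, 5 lay at least 2-fold lower in co-culture, 2 lay at least 2-fold higher and 14 stayed within 2-fold. Of all measured probe sets with 1 gene symbol, 8.05% were at least 2-fold lower and 8.17% at least 2-fold higher. The count of higher members is thus near its background, and the 5 lower ones all belong to Dnmt3a and Dnmt3b. The median log2 difference of the 21 was -0.42, beside 0.03 over all 21168 measured probe sets of that kind. It turned to 0.13 when probe sets of shared sequence were left out, which removes those of Dnmt1 and Dnmt3b. When each gene was read by its brightest probe set, 1 of 8 measured genes was lower (Dnmt3a) and 1 was higher (Tet1), against backgrounds of 9.97% and 4.52% of 11560 measured genes. In either direction 16.2% of measured probe sets and 14.5% of measured genes passed 2-fold.

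**Figure D1:**
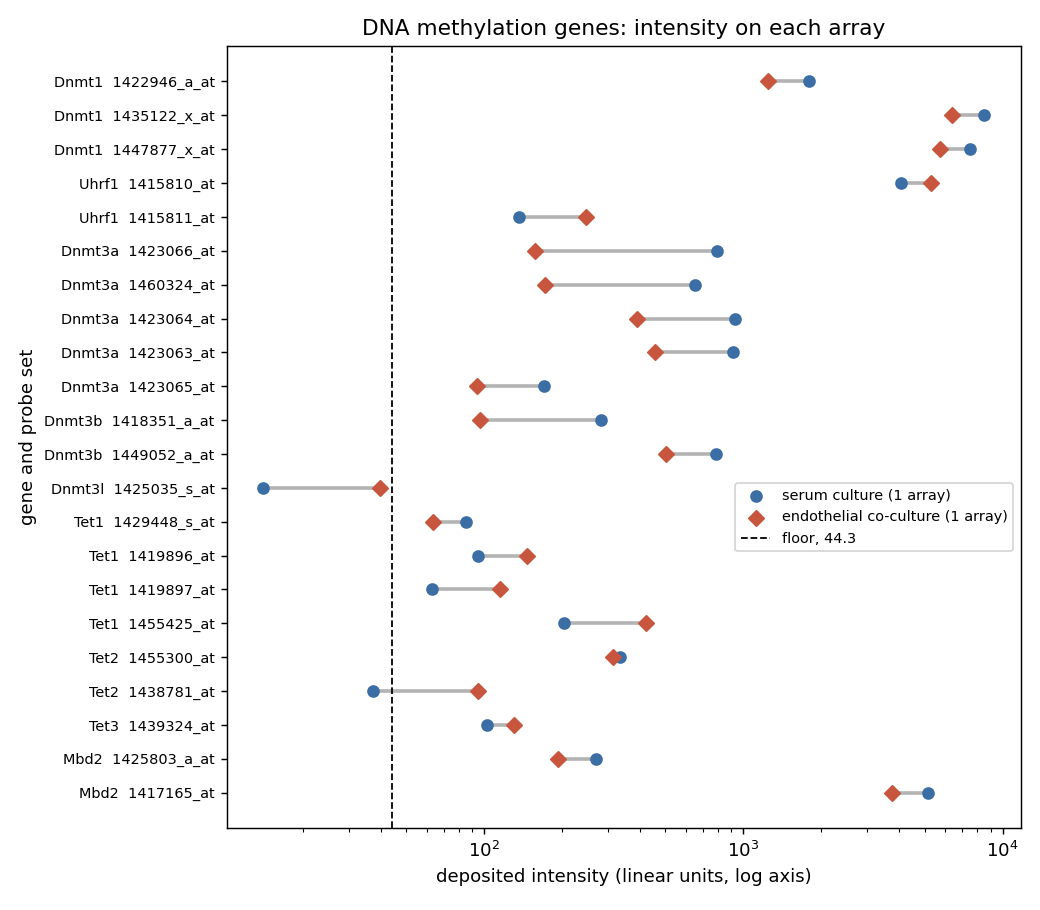
Deposited intensity of each of the 22 probe sets (log axis) on the array labelled serum culture (circles) and the array labelled co-culture (diamonds), 1 array each, with the floor of 44.3 as a dashed line. All 5 probe sets of Dnmt3a and both of Dnmt3b lie further left in co-culture, and the single probe set of Dnmt3l lies left of the floor on both arrays.

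Dnmt3a, the de novo methyltransferase of blood stem cells and many adult tissues, had the largest differences of the set. Its probe set 1423066_at had an intensity of 792 in serum culture and 157 in co-culture, 5.03-fold lower. Probe set 1460324_at had 650 in serum culture and 171 in co-culture, 3.80-fold lower. The brightest ones stood closer together. Probe set 1423064_at had 931 and 389, 2.40-fold lower, and 1423063_at had 914 and 455, 2.01-fold lower. The dimmest, 1423065_at, had 170 and 94.0, a log2 difference of -0.85. All 5 were thus lower in co-culture, with 19.9% to 55.4% of the serum intensity, and the mean log2 difference was -1.47 ± 0.63 (SD over 5 probe sets). Since these cultures are bulk samples, fewer cells that make Dnmt3a and less Dnmt3a RNA per cell cannot be told apart.

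The size of the Dnmt3a difference depends on the probe set. By the brightest, 1423063_at, the log2 difference was -1.01, just past 2-fold, and 9.85% of measured genes were as low or lower. By the mean over probe sets, 3.11% of measured genes were as low. Of 262 genes with exactly 5 measured probe sets, 22 (8.40%) had all 5 below 0 and 5 (1.91%) had at least 4 of them 2-fold lower, as Dnmt3a did. The annotation ties all 5 Dnmt3a probe sets to 1 source sequence, so they are not independent looks at the transcript. The gene was no longer past 2-fold by its brightest probe set after quantile normalization (-0.93) or when a pseudocount of 16 replaced the floor (-0.98). No setting brought its value above -0.93.

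Dnmt3b, the de novo methyltransferase best known from the early embryo, was also lower by both of its probe sets. Probe set 1418351_a_at had an intensity of 283 in serum culture and 96.2 in co-culture, 2.94-fold lower. The brighter 1449052_a_at had 785 and 503, a log2 difference of -0.64 that lay within 2-fold. The mean was -1.10 ± 0.65 (SD over 2 probe sets), and 6.52% of measured genes had a mean as low. Both probe sets have identifiers of the kind used for sequence shared between transcripts, and both rest on 1 source sequence. Of 3073 genes with exactly 2 measured probe sets, 31.0% had both below 0, so this direction alone is common.

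Dnmt3l, the catalytically inactive partner, was not measured. Its single probe set 1425035_s_at had an intensity of 14.1 in serum culture and 39.6 in co-culture, and both values lie below the floor. No difference is read from them. With the floor lowered to percentile 25 of all values, an intensity of 12.8, the log2 difference would be 1.49.

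Bases before annotated start sites of the genes with the largest differences are shown because CpG is the site that these enzymes act on, with every CpG in capitals. They are taken from RefSeq for GRCm38.p6 and run 5′ to 3′ on the gene's strand. The stretch at the most upstream Dnmt3a start in the table used is chr12:3806730-3806979, plus strand, and that of the most downstream one is chr12:3891494-3891743, plus strand. Both lie within the annotated span of the gene. Those of Dnmt3b, chr2:153649199-153649410 on the plus strand, and Tet1, chr10:62887470-62887574 on the minus strand, lie before the gene's span. They were cut where that span begins, so the bases next to their start sites (chr2:153649449 and chr10:62887324) are not shown.
Dnmt3a upstream start: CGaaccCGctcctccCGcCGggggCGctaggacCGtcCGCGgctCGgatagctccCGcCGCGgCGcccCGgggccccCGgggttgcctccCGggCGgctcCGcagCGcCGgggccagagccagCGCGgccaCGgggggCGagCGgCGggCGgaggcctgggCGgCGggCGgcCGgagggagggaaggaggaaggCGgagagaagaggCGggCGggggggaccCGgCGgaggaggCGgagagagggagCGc
Dnmt3a downstream start: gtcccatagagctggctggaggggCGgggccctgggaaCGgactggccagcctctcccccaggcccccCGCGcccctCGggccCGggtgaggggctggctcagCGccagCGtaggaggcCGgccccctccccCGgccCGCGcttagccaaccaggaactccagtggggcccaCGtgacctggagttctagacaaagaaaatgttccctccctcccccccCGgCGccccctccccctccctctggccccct
Dnmt3b: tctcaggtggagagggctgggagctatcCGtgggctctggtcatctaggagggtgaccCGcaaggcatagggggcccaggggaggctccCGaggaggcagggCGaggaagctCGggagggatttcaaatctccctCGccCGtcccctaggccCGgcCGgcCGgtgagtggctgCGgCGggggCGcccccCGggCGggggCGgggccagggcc
Tet1: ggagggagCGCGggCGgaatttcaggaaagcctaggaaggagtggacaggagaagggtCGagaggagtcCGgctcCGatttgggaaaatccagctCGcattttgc
The stretches hold 38 CpG in 250 bases, 15 in 250, 16 in 212 and 7 in 105, in that order. The upstream Dnmt3a start is dense in CpG throughout, whereas the downstream one has long runs without any.

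Start-site windows were taken for 8 of the 9 genes. Mbd2 was left out by hand, so the counts here do not cover it. At 300 bases each (250 before and 50 after the start), there were 15 windows. Their CpG counts ran from 2 to 57, and 11 of the 15 lay above the median of 7 over all 32851 windows. Tet2 had 57 CpG, a count reached by 0.15% of all windows. The 2 upstream windows of Dnmt3a, which overlap, had 46 and 47, reached by 1.65% and 1.44%, and the downstream one had 18. Dnmt3b had 30, Tet3 22 and Tet1 17. Dnmt1 had 2, 12 and 33 in its 3 windows, and Uhrf1 had 12 and 33. All 3 windows of Dnmt3l lay below the median, with 6, 4 and 3. The motif GGGCGG, a GC box searched on both strands, was in 12 of the 15 windows and in 35.7% of all windows. It holds a CpG itself, and its share among windows of like CpG count was not taken. TTTCCCGC or TTTGGCGC, forms of the E2F site searched on both strands, were in 1 of the 15, the third of Dnmt1, and in 1.56% of all windows. These are descriptions of the letters, and no methylation or binding was measured.

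**Figure D2:**
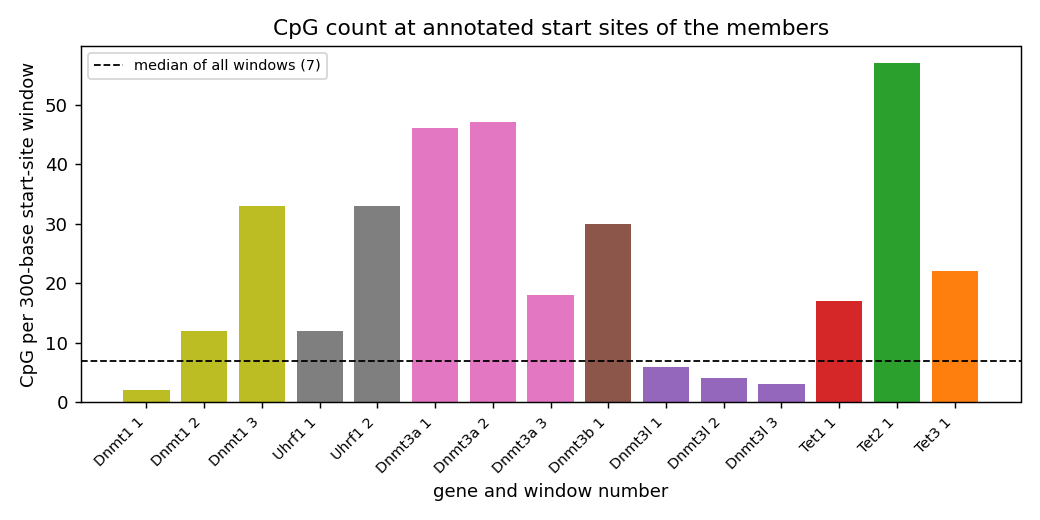
Number of CpG in each 300-base window around an annotated start site of 8 of the genes, with the median of all 32851 windows (7) as a dashed line; bar colours mark genes. Tet2 and the upstream Dnmt3a windows stand highest and the 3 Dnmt3l windows lie under the line.

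Neither gene of the maintenance pair passed 2-fold. Dnmt1, the copying methyltransferase, was bright on both arrays and slightly lower in co-culture by all 3 probe sets, as were 19.2% of the 1382 genes with exactly 3 measured probe sets. Probe set 1435122_x_at had an intensity of 8511 in serum culture and 6392 in co-culture, 1447877_x_at had 7455 and 5712, and 1422946_a_at had 1795 and 1241. Co-culture thus held 69.1% to 76.6% of the serum intensity. The log2 differences ran from -0.53 to -0.38, a narrow range, with a mean of -0.44 ± 0.08 (SD over 3 probe sets). Of all measured genes, 23.6% had a mean as low. All 3 identifiers are of the kind that marks sequence shared between transcripts, and whether the probe sets read the same bases was not tested.

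Uhrf1, which guides Dnmt1 to replicated DNA, was higher in co-culture by both probe sets and within 2-fold by both; 32.6% of genes with exactly 2 measured probe sets had both above 0. The bright 1415810_at had an intensity of 4060 in serum culture and 5298 in co-culture, a log2 difference of 0.38. The dim 1415811_at had 136 and 247, a difference of 0.86. Both are tied to the same source sequence. Among 22 measured genes of DNA replication, the phase in which Dnmt1 and Uhrf1 work, the median log2 difference was -0.14 by the brightest probe sets. Of the 22, 1 was at least 2-fold lower (Chaf1b) and 0 higher, against 9.97% and 4.52% of all measured genes. The range by the brightest probe sets ran from -1.05 to 0.65, though other probe sets of Rrm1 and Tyms reached 1.67 and 1.20. Dnmt1 by its brightest probe set (-0.41) and Uhrf1 (0.38) both lie inside that range.

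Of the 7 measured probe sets of the Tet erasers, 2 passed 2-fold upwards, 1 of Tet1 and 1 of Tet2, and 0 downwards. Of all measured probe sets with 1 gene symbol, 8.17% and 8.05% did so. The Tet2 one counts as measured only through the co-culture array. Among the 6 above the floor on both arrays, 1 was at least 2-fold higher. Tet1, the family member prominent in embryonic stem cells, had 4 measured probe sets. The brightest, 1455425_at, had an intensity of 203 in serum culture and 420 in co-culture, 2.07-fold higher. Probe set 1419896_at had 94.6 and 146, and 1419897_at had 62.7 and 115, with log2 differences of 0.63 and 0.88. The remaining one, 1429448_s_at, went the other way, from 84.8 to 63.5, a difference of -0.42. Thus 3 of 4 were higher, and the mean was 0.53 ± 0.66 (SD over 4 probe sets). Of 588 genes with exactly 4 measured probe sets, 25.2% had all but 1 above 0 and 26.2% had all 4 above 0.

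The call of Tet1 past 2-fold is not firm. By the brightest probe set 3.95% of measured genes were as high, but by the mean over probe sets 16.7% were. Its log2 difference was 0.98 after the median difference of all measured probe sets had been subtracted, 0.86 after scaling to the hybridisation spikes and just under 1 with a pseudocount of 16. With the floor at percentile 75, an intensity of 389 that lies above the serum value, it was 0.11. Its direction was upward in each of these settings.

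Tet2, the Tet enzyme most often mutated in blood cancers, was nearly the same on both arrays by its brighter probe set and higher by the other. Probe set 1455300_at had an intensity of 334 in serum culture and 315 in co-culture, a log2 difference of -0.08. Probe set 1438781_at had 37.4 and 94.6. The serum value of the latter lies under the floor, so the co-culture value was at least 2.14-fold higher, and the probe set counts as measured only through the co-culture array. The mean of 0.51 ± 0.83 (SD over 2 probe sets) has the opposite sign to the brighter probe set, and Tet2 is given no direction here. Tet3, the Tet enzyme of the fertilised egg and of neurons, had 1 probe set, 1439324_at, at 103 and 130. Its difference of 0.34 is smaller than the pooled SD.

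Mbd2, the reader of methylated CpG, was lower by both probe sets and within 2-fold. The bright 1417165_at had an intensity of 5137 in serum culture and 3752 in co-culture. The dim 1425803_a_at had 271 and 193. The log2 differences were -0.45 and -0.49, so 2 probe sets of very different brightness gave almost the same value, although each rests on a source sequence of its own. The mean was -0.47 ± 0.02 (SD over 2 probe sets), and 22.4% of measured genes had a mean as low. This places Mbd2, like Dnmt1, within the bulk of all genes.

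Set side by side, the 7 probe sets of the de novo enzymes Dnmt3a and Dnmt3b ran from -2.33 to -0.64 with a median of -1.26. The 6 probe sets of the Tet enzymes that lay above the floor on both arrays ran from -0.42 to 1.05 with a median of 0.48. All 7 of the former were below 0, against 47.4% of all measured probe sets, and 4 of the 6 latter were above 0, against 52.6%. After quantile normalization the lowest Tet1 probe set, 1429448_s_at, was at -0.71 and Dnmt3b 1449052_a_at at -0.56, so the ranges then overlapped. Probe sets of 1 gene share its RNA and in part its source sequence, so the counts stand for 2 and 3 genes.

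**Figure D3:**
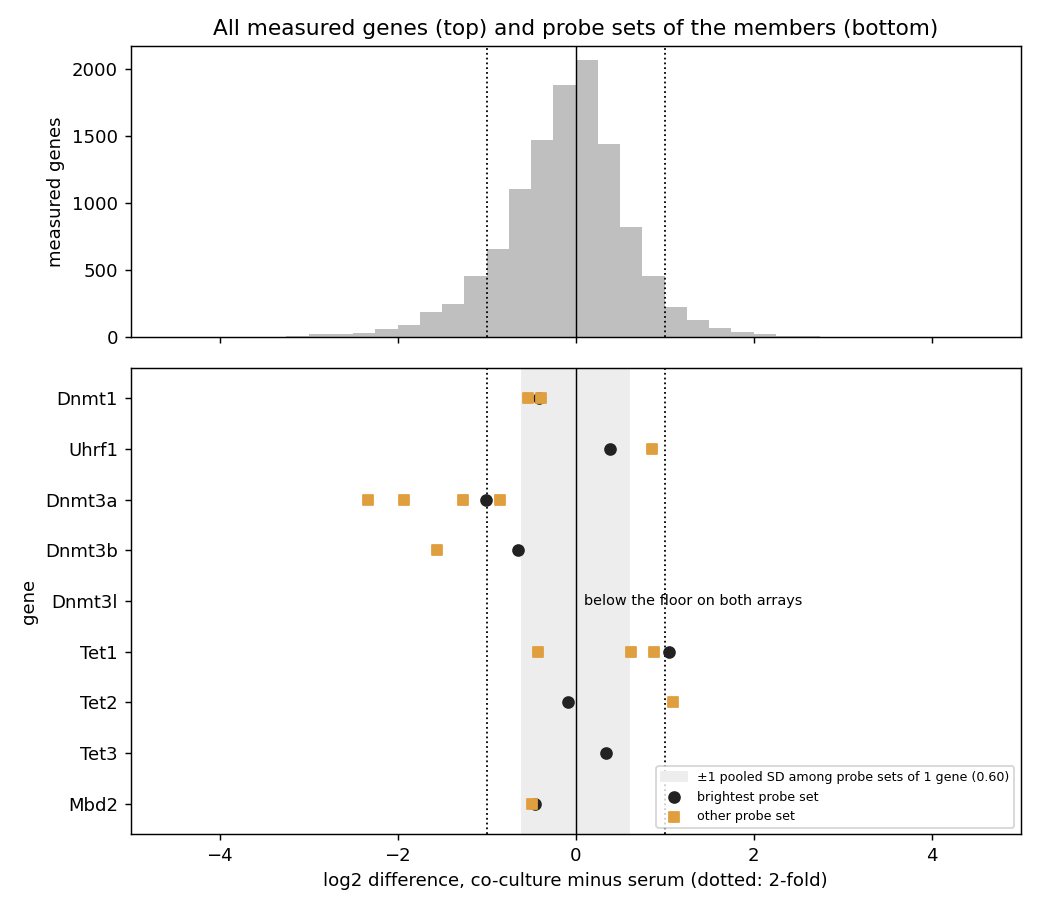
Top, number of measured genes by log2 difference, co-culture minus serum culture. Bottom, log2 difference of each of the 21 measured probe sets by gene, with the brightest probe set of each gene as a black circle, the others as squares and the pooled SD of 0.60 as a grey band. Every Dnmt3a and Dnmt3b probe set lies left of the band, while those of Dnmt1, Tet3 and Mbd2 lie inside it.

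The proteins that work with these genes were looked at through lists, each gene by its brightest probe set. Partners of maintenance methylation, among them the remodeller Hells and the clamp Pcna, had 12 measured genes. Of these 1 passed 2-fold downwards and 0 upwards, against 9.97% and 4.52% of all measured genes. The median log2 difference was 0.05, beside -0.06 over all measured genes. The lower one was Cdca7l, a relative of the Hells activator Cdca7, with an intensity of 3164 in serum culture and 1230 in co-culture. Probe sets other than the brightest ran from -0.10 to 1.90 for Hells and from 0.05 to 1.43 for Usp7. Partners of de novo methylation and of imprint protection had 0 of 11 past 2-fold, against 14.5% of all measured genes, and a median of 0.03. The largest differences there were those of the histone methyltransferase Nsd1 (0.95, but from -0.21 to 1.86 by other probe sets) and the insulator protein Ctcf (0.58, and -0.29 by another). Other probe sets also passed 2-fold upwards for Zfp445 (1.05 to 2.83) and Setdb1 (0.54 to 1.25). None of the 12 measured NuRD genes, whose complex Mbd2 recruits, passed 2-fold by the brightest probe set, against 14.5% of all measured genes. Their median was 0.17. By that probe set Chd3, a remodelling subunit, had the highest value (0.96), and Mta1, a scaffold subunit, the lowest (-0.75). Other probe sets ran from 1.75 to 2.35 for Rbbp4, 0.34 to 1.55 for Chd4, -0.11 to 1.39 for Gatad2a and 0.44 to 1.15 for Gatad2b. This list is thus within 2-fold only by the brightest probe sets.

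Other readers of methylated DNA had 2 of 8 measured genes lower and 0 higher, against 9.97% and 4.52% of all measured genes, and a median of -0.15. Both lower ones are zinc finger proteins of 1 family, but Zbtb33 of the same family had the highest value of the list (0.29). Zbtb4 had an intensity of 185 in serum culture and 60.2 in co-culture, 3.07-fold lower, though another probe set gave 0.17. Zbtb38 had 1755 and 683, 2.57-fold lower, with other probe sets from -1.76 to -0.35. The genes of active demethylation and base excision repair had 3 of 16 higher and 3 lower, against 4.52% and 9.97% of all measured genes, and a median of -0.15. Gadd45b, a stress gene linked to demethylation, had 694 and 4419, 6.37-fold higher, and its other probe sets gave 2.26 and 2.59. The repair scaffold Xrcc1 was 2.95-fold lower (1808 to 614). Gadd45a, another of the Gadd45 family, was lower with a log2 difference of -1.37. The remaining calls, named after their values were seen, were Cxxc5, a CXXC protein known to bind unmethylated CpG (1591 to 3552; 1.70 by another probe set), Gadd45g (521 to 1043) and the glycosylase Neil3 (116 to 45.6, -1.35).

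The supply of the Tet cofactor was covered by 11 measured genes. Tet enzymes consume 2-oxoglutarate, which isocitrate dehydrogenases make, and are held back by succinate, fumarate and 2-hydroxyglutarate, which other enzymes of the list remove. Of the 11, 3 were at least 2-fold lower and 0 higher, against 9.97% and 4.52% of all measured genes. In all 10 were below 0, against 54.1%, and the median was -0.69. D2hgdh, which clears 2-hydroxyglutarate, had an intensity of 767 in serum culture and 190 in co-culture, 4.03-fold lower, and -1.42 by another probe set. Idh2, the mitochondrial isocitrate dehydrogenase, had 4629 and 1450, 3.19-fold lower, but its other probe set gave 1.86 in the opposite direction. The third was the succinate dehydrogenase subunit Sdhb (6436 to 3215), and the sole gene above 0 was its partner Sdhd (0.61). The genes that supply the methyl donor, S-adenosylmethionine, stayed within 2-fold in 12 of 12 cases by the brightest probe set. Of all measured genes 14.5% passed 2-fold. The median of the list was -0.10. Other probe sets ran from 0.24 to 1.17 for Shmt1 and from -0.95 to 0.30 for Ahcyl2. Mtrr, which reactivates methionine synthase, had 0.69, and the folate carrier Slc19a1 had -0.50.

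**Figure D4:**
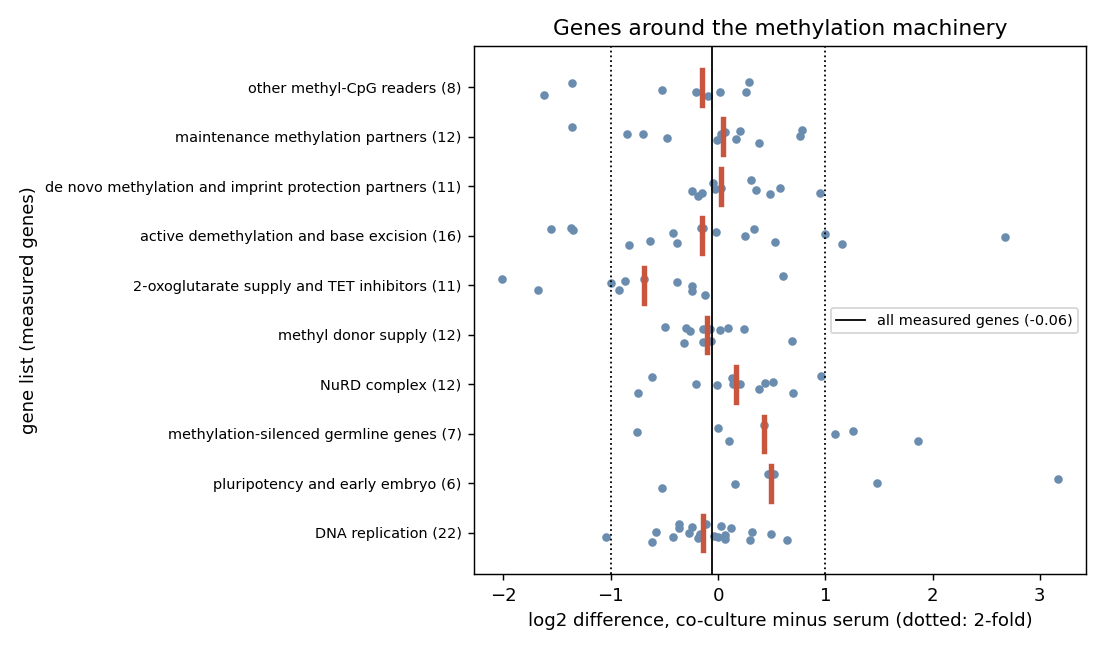
Log2 difference, co-culture minus serum culture, of each measured gene (points, brightest probe set, spread vertically for legibility) in 10 lists around the methylation machinery, with the list median as a red bar and the median of all measured genes (-0.06) as a line. The median of the 2-oxoglutarate list (-0.69) lies furthest left.

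Markers of other cells were looked at because the co-culture holds endothelial cells and the labels name no sorting step. Of 15 endothelial markers 4 were measured, and the summed intensity of all 15 was 870 in serum culture and 914 in co-culture, most of it from Egfl7 (473 and 532). The other measured markers lay above the floor on 1 array only. Flt1 (93.3 and 26.4, at least 2.11-fold lower in co-culture) and Ptprb (80.5 and 31.1) did so in serum culture. Eng (36.5 and 58.5) did so in co-culture. The markers below the floor on both arrays included Pecam1 (21.3 and 18.4), Cdh5 (19.6 and 44.1) and Kdr (19.5 and 38.4). Of 10 fibroblast markers 5 were measured, with sums over the whole list, as for those that follow, of 382 and 433. Pan-leukocyte markers had 4 of 12 measured (sums of 380 and 451), B lineage markers 2 of 11 (312 and 289) and T lineage markers 1 of 9 (104 and 134). The labels do not give the species of the endothelial cells, and the array holds probes for mouse genes.

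The values of the 8 measured genes kept their sign under all alternative settings in which they were measured, except that of Tet2, which turned positive by the mean over probe sets. Across settings Dnmt3a ran from -1.47 to -0.93, Dnmt3b from -1.10 to -0.56, Dnmt1 from -0.60 to -0.41 and Mbd2 from -0.64 to -0.45. Uhrf1 ran from 0.19 to 0.62, Tet3 from 0.15 to 0.34 and Tet1 from 0.11 to 1.09. Tet2 ran from -0.28 to 0.51. The split of calls over all genes moved more: 31.2% of the genes past 2-fold were higher, against 55.9% with the floor at percentile 25, 41.5% with the pseudocount and 18.0% with scaling to the spikes. That scaling moved the median of all measured genes from -0.06 to -0.25, and the lower floor moved it to 0.04.

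**Figure D5:**
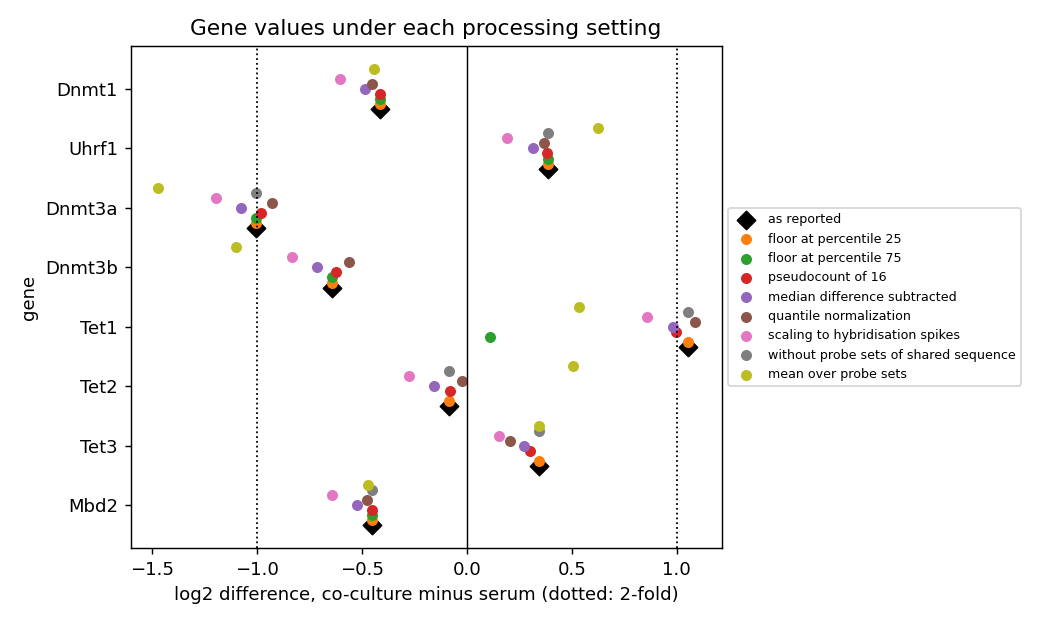
Log2 difference, co-culture minus serum culture, of the 8 measured genes as reported (diamonds) and under each alternative setting (coloured circles), with 2-fold as dotted lines. Dnmt3a stays between -1.47 and -0.93, and Tet1 drops to 0.11 where the floor is at percentile 75.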

How the data were processed

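Per the labels' protocols, RNA from an RNeasy preparation was primed with T7-oligo(dT) for cDNA, and biotin was put in by in vitro transcription. The deposited table holds the authors' linear intensity per probe set for 2 arrays; no source used here names the array software or normalization. Both arrays have a mean of 500.0 after trimming 2% at each end, while their medians are 36.9 and 50.7. This pattern was read from the values, and no label states the scaling.

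Probe sets with exactly 1 symbol in the platform annotation were named, and 34754 of these 34958 took their RefSeq (GRCm38.p6) symbol by gene number; 932 with several symbols named no gene. Values were floored at the pooled median (44.3), and log2 differences, called at 2-fold, were taken per probe set and, per gene, from the probe set of highest mean log2 value. Samples were grouped by their labels, with 1 array per group, so no test was run. The naming rule covers the 9 members and, from each list, up to 3 genes with the largest difference past 2-fold, or 2 where none passed. Other list genes named here fall outside this rule and were named with their values known. Members and lists were chosen with earlier results of these data known. Alternatives were other floors (percentiles 25 and 75), a pseudocount of 16, subtraction of the median difference, quantile normalization, scaling to 18 spike probe sets, leaving out shared-sequence probe sets and the mean over probe sets. Steps were tested on simulated data in which only bright genes were changed, by more than 2-fold, with noise far smaller than the pooled SD of 0.60. That test does not cover calls near 2-fold or on dim probe sets. Calls in the gene lists were made only as reported, under no alternative setting. Python 3.11.15, numpy 2.4.6 and pandas 2.3.3 were used.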

Additional observations from a re-analysis of the deposited data

How the results depend on the processing

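With 1 array per group no replicate could be left out. No paired analysis was possible because each group has 1 sample. As reported, 2 member probe sets were higher and 5 lower, and 1 gene was higher and 1 lower. With the floor at percentile 25, 2 genes were higher, since Dnmt3l then counted as measured. With the floor at percentile 75, 0 probe sets were higher and 3 lower, and 0 genes were higher; only 11 probe sets were then measured. With a pseudocount of 16, 1 probe set was higher, and 0 genes were higher and 0 lower. Quantile normalization left 1 probe set higher and 0 genes lower. Subtracting the median difference, and likewise scaling to the spikes, left 1 probe set and 0 genes higher. By the mean over probe sets, 0 genes were higher and 2 lower, Dnmt3a and Dnmt3b. Leaving out probe sets of shared sequence kept every count within 1.5 times, but took out all those of Dnmt1, Dnmt3b and Dnmt3l. The median over member probe sets (-0.42) ran from -0.61 to -0.41 in the other settings, but was 0.13 without probe sets of shared sequence. Values near the floor, as for most Tet probe sets, are the least certain.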

Other observations

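Germline genes that DNA methylation is known to silence in body cells were mostly near background. Of 17 with a probe set 7 were measured, 3 of them higher by 2-fold or more and 0 lower, with a median log2 difference of 0.43 beside -0.06 over all measured genes, of which 4.52% were at least 2-fold higher. Tex19.1, a germ cell and placental gene, had an intensity of 85.1 in serum culture and 311 in co-culture, 3.65-fold higher. Sycp3, of the meiotic chromosome axis, had 75.5 and 160, 2.12-fold higher. Piwil2, of the piRNA pathway, had 24.1 and 106, at least 2.40-fold higher, and counts as measured only through the co-culture array, as does Ddx4, a germ cell helicase named after its values were seen (20.3 and 47.5). Of the 5 genes above the floor on both arrays 2 were higher and 0 lower. Each of the 3 named first has 1 measured probe set, and only Tex19.1 reached an intensity of 200 in this list. The summed intensity of the 17 was 687 and 1208. Over all probe sets the median intensity was also higher in co-culture, at 50.7 against 36.9 in serum culture. With the floor at percentile 25, 2029 of 16145 measured genes were at least 2-fold higher and 1599 lower. As reported, the counts were 523 and 1152 of 11560. The part of this gap between the arrays in the values of this dim list was not tested.

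Genes of pluripotency and the early embryo, in which Dnmt3b, Dnmt3l and Tet1 are prominent, had 6 of 18 measured, with 2 higher and 0 lower, against 4.52% and 9.97% of all measured genes, and a median of 0.49. Lin28a, an RNA-binding protein, had a log2 difference of 3.17 and, by its other probe set, 3.47. Fgf4, a growth factor of the early embryo, counted as measured only through the co-culture array (33.4 and 124), as did Dppa2 (23.5 and 61.1). Otx2 did so only through the serum array (63.6 and 32.0). Dppa2 and Otx2, transcription regulators of the early embryo, were named after their values were seen. Of the 3 genes above the floor on both arrays 1, Lin28a, was higher. Those below the floor on both arrays included Pou5f1 (1.86 and 2.31), Nanog (43.8 and 26.7) and Sox2 (21.1 and 18.0). They too were named after their values were seen. The parts of the different 3′ to 5′ ratios and of the different medians of the arrays in these values were not tested.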
